A study of Mus musculus with 16 samples.

Results

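The respiratory chain and ATP synthase genes described here are the 90 genes, of 18929 in the deposited table, whose symbol starts with Nduf, Uqcr, Atp5, Cox4i, Cox5, Cox6, Cox7 or Cox8. All of them are nuclear genes, and the subunits encoded in mitochondrial DNA were not analyzed here. By the complex they belong to, 7 encode core and 31 accessory subunits of complex I, 8 encode assembly factors of complex I, 8 belong to complex III, 19 to complex IV, 6 to the F1 head and 11 to the Fo part of the ATP synthase. Of the 90, 88 passed the filter on low values and 72 had a mean of at least 50 FPKM (fragments per kilobase of transcript, scaled for sequencing depth) over all tumors.

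The samples are poly(A) RNA of 16 B16F10 tumors in 4 groups of 4, named vehicle, α-KG, anti-PD1 and, for both agents together, α-KG + anti-PD1. B16F10 is a melanoma cell line of C57BL/6 mice, and the hosts were females of that strain, 7 to 8 weeks old, which received the cells in the right abdomen, with treatment from a tumor volume of about 50 mm3 and tumors taken after 9 to 11 days. All groups therefore share the cell line, the mouse strain and the sex of the host, which kept its own immune system, and every tumor was an independent sample. Vehicle mice received corn oil with an isotype control antibody, α-KG (α-ketoglutarate, an intermediate of the tricarboxylic acid cycle) was given at 100 mg/kg, anti-PD1 is an antibody against the T-cell receptor PD-1, and the last group received both. The comparisons ask how each treatment, and the combination, changed the tumor transcriptome.

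Oxidative phosphorylation takes place in the inner mitochondrial membrane. Complex I takes electrons from NADH, complex III passes them to cytochrome c, and complex IV, cytochrome c oxidase, hands them to oxygen, and all of these complexes pump protons. The ATP synthase lets the protons flow back through its Fo part, which turns a central stalk inside the F1 head and drives the formation of ATP. Most subunits are made from a single nuclear gene used in every tissue, but several subunits of complex IV have a second gene for muscle, testis or hypoxic cells. Melanoma cells use both glycolysis and oxidative phosphorylation.

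Promoter windows of 300 bases (250 before and 50 after the transcription start, RefSeq, GRCm38.p6) were found for 74 of the 90 genes, in 79 windows. The nuclear genes of oxidative phosphorylation are known for sites of NRF1, of ETS factors such as GABP, and of YY1 near the start. The NRF1 letters (GCGCA, any base, GCGC) occurred in 22.8% of the 79 windows and in 4.6% of all 32851 windows, CCGGAAG (ETS) in 21.5% against 8.86%, AAGATGG (YY1) in 15.2% against 6.34%, and CCAAT in 41.8% against 37.4%, each read on both strands. Matches of different motifs may share bases, and a match describes the letters and not a bound site. For 18 of the 21 genes that were lower after α-KG + anti-PD1 against vehicle, 20 windows were found. In these windows the shares were 20% for NRF1, 5% for ETS, 5% for YY1 and 40% for CCAAT, where 5% is 1 window. Of the 14 windows of complex IV genes, 1 held the NRF1 letters. The 150 bases before the start are shown for 2 F1 genes that were lower after α-KG + anti-PD1 (Atp5b and Atp5c1), for the complex IV gene Cox6a1, which varied most between tumors among the abundant genes, and for the muscle isoform Cox8b. Capitals mark matches of the 4 motifs.
Atp5b, chr10:128083157-128083306, plus strand: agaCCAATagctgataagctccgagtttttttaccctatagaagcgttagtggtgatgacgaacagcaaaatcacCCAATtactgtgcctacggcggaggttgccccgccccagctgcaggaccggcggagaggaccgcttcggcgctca
Atp5c1, chr2:10080433-10080582, minus strand: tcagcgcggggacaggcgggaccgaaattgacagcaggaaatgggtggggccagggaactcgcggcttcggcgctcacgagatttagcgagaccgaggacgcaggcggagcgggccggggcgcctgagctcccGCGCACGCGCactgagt
Cox6a1, chr5:115348959-115349108, minus strand: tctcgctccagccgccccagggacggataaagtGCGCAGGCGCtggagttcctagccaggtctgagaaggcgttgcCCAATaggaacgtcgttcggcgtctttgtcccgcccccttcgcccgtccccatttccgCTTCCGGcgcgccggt
Cox8b, chr7:140900447-140900596, minus strand: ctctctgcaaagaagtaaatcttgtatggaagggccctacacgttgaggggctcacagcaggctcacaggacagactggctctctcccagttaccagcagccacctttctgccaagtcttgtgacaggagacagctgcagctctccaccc
The Cox6a1 stretch held an NRF1, a CCAAT and an ETS match, the Atp5c1 stretch an NRF1 match, the Atp5b stretch 2 CCAAT matches and the Cox8b stretch none of the 4. Atp5c1 also had a window for a start further upstream (chr2:10080461-10080760), which held no NRF1 match. Part of the printed Atp5c1 stretch lies downstream of that other start.

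Several facts of the whole series bear on these genes. Depth is unknown because read counts are not part of the table. The FPKM values of a tumor summed to between 549740 and 654770 in the vehicle, anti-PD1 and α-KG groups and to between 514180 and 527810 in the α-KG + anti-PD1 group. Hemoglobin genes took 2.09% to 2.23% of the sum in the latter group and 4.23% to 22.2% in the others. The 5 melanocyte markers summed to 7542 to 10170 FPKM in every tumor.

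In the level of their messenger RNA the genes covered a wide range. The highest means were those of Atp5b, which encodes the catalytic β subunit of the ATP synthase (mean over all tumors 814 FPKM), and Cox8a, a small subunit of complex IV (755 FPKM). In other parts the most abundant genes were Uqcr11 in complex III (416 FPKM), Ndufb9 among the accessory subunits of complex I (362 FPKM), Atp5g2 in the Fo part (585 FPKM) and Ndufaf8 among the assembly factors (64.8 FPKM). Uqcr11 was at 415 ± 48.4 FPKM in vehicle and at 406 ± 65.9 FPKM after α-KG + anti-PD1 (mean ± SD, n = 4). The 90 genes together made up between 3.00% and 3.64% of the FPKM sum in the vehicle group, between 2.77% and 3.59% with anti-PD1, between 2.78% and 3.36% with α-KG and between 3.30% and 3.76% with both. When the hemoglobin genes were left out of the sum, these shares were 3.45% to 4.09%, 3.56% to 3.76%, 3.17% to 3.66% and 3.37% to 3.84%, so that the ranges of all 4 groups overlapped on both denominators. On the whole FPKM sum the overlap of vehicle with the combination rested on vehicle tumor 1 (3.64%), since the other 3 vehicle tumors were at 3.00% to 3.11%.

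After α-KG + anti-PD1, 21 of the 88 tested genes fell against vehicle and 0 rose (limma on log2(FPKM + 1), adjusted p under 0.05), while over all 12850 genes tested 10.5% were lower and 34.9% higher. Among the genes that fell were those of subunits of the F1 head of the ATP synthase, and the core proteins and the Rieske protein of complex III. Subunits of complex I from the NADH side and from other parts fell as well. The abundant subunits of complex IV were not among the genes that fell. By part, 3 of 7 core and 6 of 30 accessory genes of complex I, 0 of 8 assembly factors, 4 of 8 genes of complex III, 2 of 18 of complex IV, 5 of 6 of F1 and 1 of 11 of Fo fell. In the plot of the change by complex, F1 and complex III lie to the left, and complex IV spreads to both sides of 0.

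**Figure D1:**
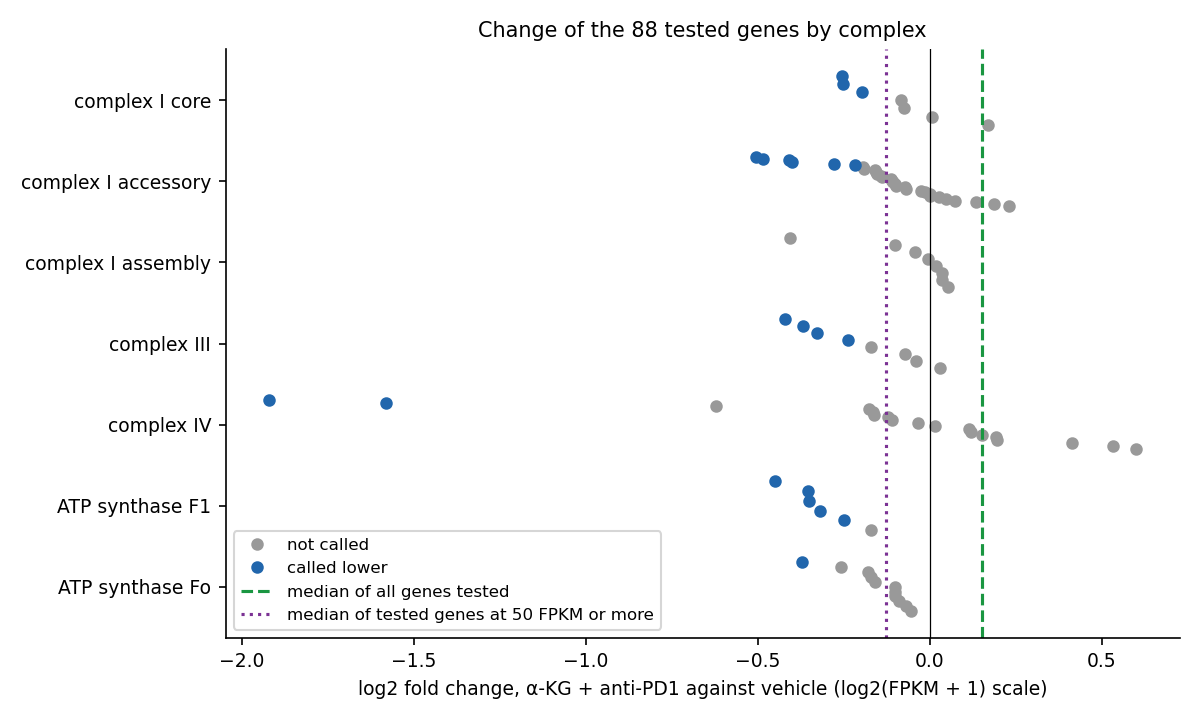
Log2 fold change of the 88 tested genes between α-KG + anti-PD1 and vehicle (x axis, log2(FPKM + 1) scale), with 1 dot per gene in rows by complex, blue where limma's adjusted p was under 0.05. The dashed line is the median of all genes tested (0.15) and the dotted line that of tested genes at 50 FPKM or more (-0.13). All 6 F1 genes lie left of 0, and the 2 leftmost dots of complex IV are the tissue isoforms Cox8b and Cox6b2.

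The median log2 fold change of the 88 genes was -0.10, against 0.15 for all genes tested, and 80 of the 88 lay below the latter, but 40 did with quantile normalization. Among the 1626 tested genes with a mean of at least 50 FPKM the median was -0.13, with 31.4% lower and 13.1% higher, and the 72 respiratory chain and ATP synthase genes at that level had a median of -0.10, with 18 lower (25%) and 0 higher. Their share of lower calls was thus not above that of equally abundant genes. By level, the median of all genes went from 0.19 at 5 to 20 FPKM to 0.02 at 20 to 50, -0.09 at 50 to 100 and -0.16 above 100 FPKM, and that of the respiratory chain and ATP synthase genes was -0.09 and -0.10 in the last 2 classes, which held 14 and 58 of them. The plot of the change by level shows this course.

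**Figure D2:**
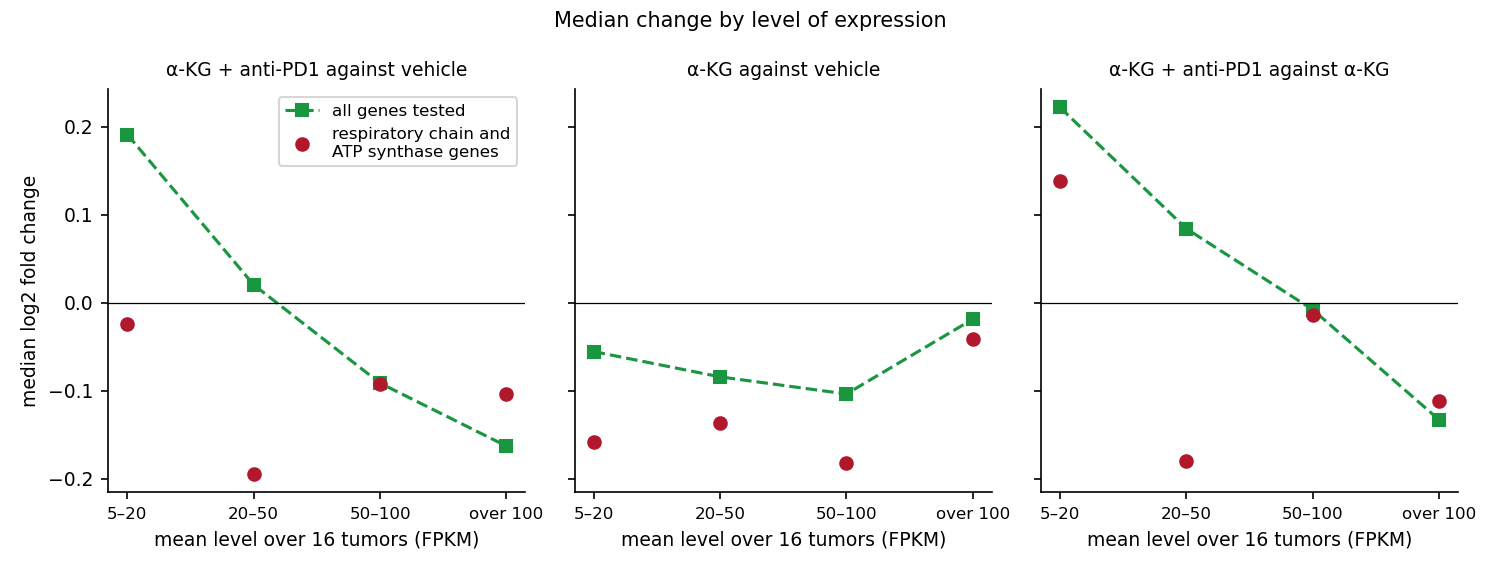
Median log2 fold change (y axis) of all genes tested (squares) and of the respiratory chain and ATP synthase genes (dots) in classes of mean FPKM over 16 tumors (x axis), for 3 comparisons. The classes hold 8, 3, 14 and 58 of these genes, the 5 genes under 5 FPKM are not drawn, and in the left and right panels the squares fall as the level rises, from 0.19 to -0.16 and from 0.22 to -0.13.

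The number of genes called depended on how the tumors were brought to a common scale. When each tumor was centered on its median gene, the median of all genes moved from 0.15 to -0.16, and 62 of the 88 genes were lower and 0 higher, where 37.4% of all genes were lower and 17.1% higher. When each tumor was rescaled to the same sum, which raises values most where sums are small, as after the combination, 5 were lower (5.68%) and 8 higher (9.09%), against 1.95% and 49% of all genes. With quantile normalization 21 were lower and 3 higher, against 31.1% and 17.4% of all genes, so the share of lower calls was below that of all genes. Rescaled to the same sum without hemoglobin genes, 21 were lower and 0 higher, as without rescaling, against 8.68% and 35.9% of all genes. Of the F1 genes, Atp5o was called lower with centering, quantile normalization and rescaling to the same sum of all genes. Its log2 fold changes were -0.76, -0.34 and -0.23 in this order. Atp5b had -0.66, -0.20 and -0.13, with adjusted p from limma of 0.000902, 0.0987 and 0.242. The calls of other cell types moved at the same time. All 5 leukocyte markers rose after α-KG + anti-PD1 (summed FPKM 25.3 to 123 in vehicle and 188 to 774 after treatment), as did all 5 T-cell markers (0.60 to 7.38 and 18.6 to 172) and all 5 macrophage markers (72.5 to 351 and 486 to 1187), while all 5 erythroid markers fell (29028 to 51654 and 4713 to 5050). Among the other marker lists, 2 of 5 neutrophil, 2 of 2 tested endothelial and the 1 tested adipocyte marker were higher, 2 of 5 melanocyte markers (Tyr and Tyrp1) were lower, 0 of 4 tested fibroblast markers were called and 0 keratinocyte markers passed the filter. Their part in the change of the respiratory chain and ATP synthase genes was not tested, and in a whole tumor fewer cells of a type and less RNA per cell cannot be told apart.

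The F1 head forms ATP. Its α and β subunits (Atp5a1 and Atp5b) make the ring that holds the catalytic sites, the γ, δ and ε subunits (Atp5c1, Atp5d and Atp5e) form the central stalk that turns inside it, and Atp5o encodes OSCP, which joins the ring to the outer stalk and is counted here with F1. For Atp5o (Gene ID 28080) the vehicle tumors had 409, 409, 457 and 478 FPKM, the anti-PD1 tumors 397, 349, 391 and 407, the α-KG tumors 389.8, 387, 398 and 356 and the α-KG + anti-PD1 tumors 325, 288, 336 and 331. Every α-KG + anti-PD1 tumor lay below all 12 others, and both single treatments lay between the combination and vehicle. The log2 fold change against vehicle was -0.45 (SE 0.08, adjusted p from limma 0.000601).

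Atp5c1 (Gene ID 11949) encodes the γ subunit. Its values were 328, 329, 342 and 348 FPKM in vehicle, 300.5, 283, 302 and 296 in anti-PD1, 304, 288, 286 and 272 in α-KG and 285, 244, 249 and 279 in α-KG + anti-PD1 tumors. All 4 vehicle tumors were above the 12 treated ones, and the 3 treated groups overlapped in part. The log2 fold change against vehicle was -0.35 (SE 0.06, adjusted p from limma 0.000815) for α-KG + anti-PD1, -0.23 (adjusted p 0.0244) for α-KG and -0.19 (adjusted p 0.155) for anti-PD1.

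Atp5b (Gene ID 11947) was at 794, 909, 916 and 957 FPKM in vehicle and at 757, 616, 678 and 755 FPKM in α-KG + anti-PD1 tumors, between which the groups did not overlap, and at 786 to 920.1 FPKM in anti-PD1 and 763 to 895 FPKM in α-KG tumors, which overlapped with vehicle and lay above the combination. Its log2 fold change was -0.35 (SE 0.09, adjusted p from limma 0.00627). Atp5a1 and Atp5d fell too, by 0.32 and 0.25 on the log2 scale (adjusted p from limma 0.0112 and 0.0242), with overlapping groups. Atp5e, the smallest subunit, did not pass (log2 fold change -0.17, adjusted p 0.353).

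**Figure D3:**
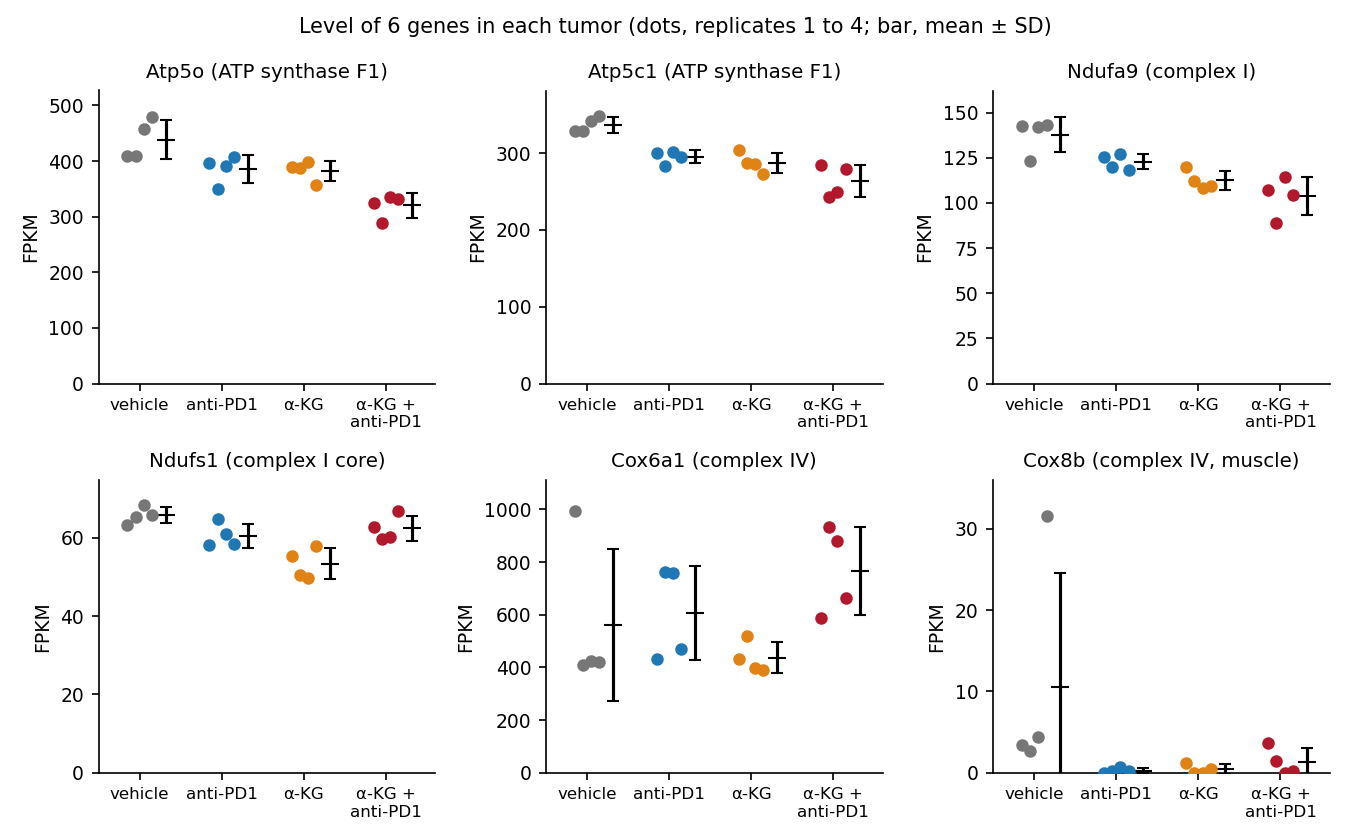
FPKM (y axis, from 0) of 6 genes in each of the 16 tumors by group (x axis), with a bar for mean ± SD. For Atp5o the 4 α-KG + anti-PD1 tumors (288 to 336 FPKM) lie below all others, for Ndufs1 the 4 α-KG tumors are lowest, and for Cox6a1 and Cox8b single tumors of a group stand far from the rest.

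The Fo part holds the ring of c subunits and the stalk that anchors F1. All 11 of its genes had a negative log2 fold change after α-KG + anti-PD1, from -0.37 to -0.05 with a median of -0.10, and 1 of them fell. That gene was Atp5g1, one of the 3 genes that encode the same mature c subunit behind different import signals. Its values were 231, 218, 247 and 251 FPKM in vehicle and 194, 174, 174 and 189 FPKM in α-KG + anti-PD1 tumors, without overlap, a log2 fold change of -0.37 (adjusted p from limma 0.000952). The more abundant Atp5g2 went from 601 ± 42.5 to 530.2 ± 6.82 FPKM and Atp5g3 from a mean of 537 to 499 FPKM (log2 fold changes -0.18 and -0.10, adjusted p from limma 0.109 and 0.388). The coding parts of the 3 genes are alike, so reads could be shared between them, and how such reads were assigned is not stated.

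Complex I takes NADH at the tip of its peripheral arm. The subunits there that fell were Ndufv1, which binds NADH, Ndufv2, its iron-sulfur partner, and the accessory Ndufv3. Ndufv3 (Gene ID 78330) had the largest fall of the abundant genes. Its values were 267, 309, 364 and 394 FPKM in vehicle, 262, 235, 254 and 308 in anti-PD1, 282, 267, 292 and 254 in α-KG and 226, 247, 226 and 232 in α-KG + anti-PD1 tumors. Vehicle tumor 1 was as low as the single treatments and the other 3 were higher, and the combination lay below all vehicle tumors. The log2 fold change was -0.50 (SE 0.11, adjusted p from limma 0.00214). Ndufv1 went from 63.8 ± 2.68 to 53.4 ± 1.38 FPKM (-0.25, adjusted p 0.00249).

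Nearer the membrane, the accessory subunit Ndufa9, which sits by the quinone site, went from 142, 123, 142 and 143 FPKM in vehicle to 107, 89.1, 114 and 104 FPKM after α-KG + anti-PD1. The highest value of the combination was below the lowest of vehicle, with a log2 fold change of -0.41 (SE 0.08, adjusted p from limma 0.000891). Ndufa10, Ndufa11, Ndufa12 and Ndufc2, accessory subunits, fell by 0.48, 0.40, 0.28 and 0.22 on the log2 scale, and the iron-sulfur subunit Ndufs8 by 0.25. The other 24 accessory genes did not pass. Ndufb4, Ndufb4b and Ndufb4c are near copies of each other, with means over all tumors of 213, 0.157 and 40.9 FPKM, and the split of reads among them is uncertain. None of the 8 assembly factors passed, with log2 fold changes from -0.41 to 0.05.

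Complex III is built on a pair of core proteins. Uqcrc1 and Uqcrc2, the core proteins, and Uqcrfs1, the Rieske iron-sulfur protein, fell by 0.33, 0.42 and 0.37 on the log2 scale, and the small subunit Uqcrq by 0.24 (adjusted p from limma 0.00673, 0.00494, 0.00934 and 0.0378). For Uqcrc2 the vehicle tumors had 82.1, 105, 110.5 and 113 FPKM and the α-KG + anti-PD1 tumors 84.6, 62.9, 76.2 and 81.5 FPKM, and vehicle tumor 1 lay inside the range of the combination. The log2 fold changes of Uqcr10, Uqcr11, Uqcrb and Uqcrh, small subunits, were between -0.17 and 0.03 and did not pass.

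The 12 abundant genes of complex IV are those used in most tissues. None was called in α-KG + anti-PD1 against vehicle, and 8 had a positive and 4 a negative log2 fold change. The median was 0.12, close to the 0.15 of all genes. All 12 had a mean above 100 FPKM, and the median of all genes tested at that level was lower, at -0.16. The largest values were those of Cox6a1 (0.53, adjusted p from limma 0.116) and Cox6c (0.41, adjusted p 0.131), while Cox5b and Cox7a2l each had -0.16. When tumors were centered on their medians, the range of the 12 was -0.48 to 0.22, and 4 were called lower and only Cox6a1 and Cox6c kept a positive value. The difference between complex IV and F1 was not tested as such.

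Several complex IV genes varied widely between tumors of a group. Cox6a1 (Gene ID 12861) had 994, 408, 425 and 421 FPKM in vehicle, 434, 763, 758 and 469 in anti-PD1, 434, 519.9, 398 and 392 in α-KG and 587, 932, 881 and 664 in α-KG + anti-PD1 tumors. Vehicle tumor 1, anti-PD1 tumors 2 and 3 and tumors 2 and 3 of the combination were the highest, and the other 3 vehicle tumors lay within the range of the α-KG tumors. Cox8a had a like order, at 1014, 662, 626 and 663 FPKM in vehicle and 724, 910.5, 884 and 731 FPKM in the combination, as had Ndufb9, a subunit of the membrane arm of complex I, at 601, 271, 291 and 325 and 306, 559, 419 and 409 FPKM.

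On deviations from the group means over 16 tumors, the Pearson correlation with Cox6a1 was 0.97 for Cox8a, 0.95 for Ndufb9, 0.92 for Cox4i1, 0.91 for Ndufb8, 0.90 for Cox6c and Ndufs4, 0.88 for Cox7a2 and 0.83 for Cox6b1. Over 0.8 were 8 of the other 87 genes and 7.09% of all genes tested. Negative values reached -0.83 for Ndufa10 and Uqcrc2, -0.78 for Atp5b, -0.76 for Atp5pb and -0.75 for Atp5a1, and 5 of the genes and 4.10% of all genes tested were under -0.7. Without vehicle tumor 1, 7 genes stayed over 0.8 and 2 under -0.7 (5.28% and 1.48% of all genes). These values describe the 16 tumors, and all genes of a tumor share its library and depth. Vehicle tumor 1 had the highest summed leukocyte markers of its group (123 FPKM), as had anti-PD1 tumor 3 (263 FPKM) and tumor 3 of the combination (774 FPKM). Anti-PD1 tumor 2 had the second highest of its group (202 FPKM). Tumor 2 of the combination had the second lowest of its own (282 FPKM, in a range of 188 to 774). Tumor 1 of the combination, with the lowest Cox6a1 of that group, had 761 FPKM. The part of leukocytes was not tested.

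The calls of several of these genes turned on vehicle tumor 1. Without it, 4 genes were called higher after α-KG + anti-PD1 against vehicle, which were Cox6a1 (log2 fold change 0.84, adjusted p from limma 0.00382), Cox6c (0.64, adjusted p 0.00964), Cox8a (0.31, adjusted p 0.0245) and Cox4i2 (0.73, adjusted p 0.0328), and 24 were called lower. With it, the same genes had adjusted p between 0.0638 and 0.385. The F1 genes Atp5a1, Atp5b, Atp5c1, Atp5d and Atp5o were called lower with and without this tumor. It was the lowest vehicle tumor in each of them, so leaving it out could not weaken their fall. Vehicle tumor 4 was the highest in each. Without it Atp5a1, Atp5b, Atp5c1 and Atp5o were called lower (adjusted p from limma 0.0430, 0.0257, 0.00428 and 0.00329) and Atp5d was not. The shares of all genes called without a tumor are not given here, so the 4 and 24 cannot be read against them.

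Several genes of complex IV are isoforms of restricted use. Cox6a2, Cox7a1 and Cox8b are the heart and skeletal muscle forms, Cox6b2 is the testis form, Cox4i2 is the form of lung and hypoxic cells and Ndufa4l2 is a relative of Ndufa4 induced by hypoxia. They were far below their common partners, Cox8b at a mean of 3.15 FPKM against 755 for Cox8a, Cox6a2 at 4.67 against 592 for Cox6a1, Cox7a1 at 5.52 against 249 for Cox7a2, Cox6b2 at 1.63 against 558 for Cox6b1 and Cox4i2 at 0.608 against 620 for Cox4i1. At these levels a value rests on few fragments. Cox8b took the values 0.21, 0.22, 0.23, 0.48 and 0.65 FPKM, near steps of a common size, in 5 of the tumors below 1 FPKM and was listed at 0 in 4 others, and the testis gene Cox7b2 reached 0.15 FPKM at most and was not tested.

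Cox8b (Gene ID 12869) was at 3.42, 2.73, 4.45 and 31.6 FPKM in vehicle, 0, 0.21, 0.65 and 0.22 in anti-PD1, 1.25, 0, 0 and 0.48 in α-KG and 3.65, 1.49, 0 and 0.23 in α-KG + anti-PD1 tumors. All vehicle tumors were above every anti-PD1 and α-KG tumor, vehicle tumor 4 stood far above the rest, and tumor 1 of the combination reached the lower vehicle tumors. The log2 fold change against vehicle was -1.92 (SE 0.59, adjusted p from limma 0.0157) for the combination, -2.45 (adjusted p 0.0102) for α-KG and -2.56 (adjusted p 0.0549) for anti-PD1. Cox6a2 had 3.53, 5.23, 5.02 and 29.5 FPKM in vehicle, 1.11, 0.54, 1.34 and 1.82 in anti-PD1, 1.55, 1.77, 1.7 and 1.11 in α-KG and 10.2, 4.6, 2.85 and 2.84 in α-KG + anti-PD1 tumors. It fell after α-KG (-1.75, adjusted p from limma 0.0194), did not pass for anti-PD1 (-1.98, adjusted p 0.0615) and overlapped with vehicle in the combination (-0.62, adjusted p 0.295).

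Skeletal muscle genes took the same course. The summed FPKM of 6 muscle markers was 56.4, 56.9, 75.3 and 713 in the vehicle, from 2.62 to 4.35 with anti-PD1, from 3.39 to 4.18 with α-KG and 73.1, 44.6, 5.36 and 4.51 in tumors 1 to 4 of the combination, with no marker at 0 in a whole group. All 6 fell after the combination and after α-KG, and 5 of 6 after anti-PD1. The vehicle tumors and tumors 1 and 2 of the combination, which had the most muscle RNA, were also those with the most Cox8b and Cox6a2, as the plot of both against the markers shows. Without vehicle tumor 4 the log2 fold change of Cox8b in the combination was -1.21 (adjusted p from limma 0.0425), that of Cox6a2 was -0.01 (adjusted p 0.992), and after α-KG they were -1.73 and -1.14 (adjusted p 0.0184 and 0.0300). The part of muscle tissue in these values was not tested. Cox7a1 was at 4.85, 6, 2.94 and 15.4 FPKM in vehicle and within 3.89 to 6.13, 3.28 to 5.67 and 4.79 to 6.1 FPKM in the treated groups, and did not pass in any comparison.

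**Figure D4:**
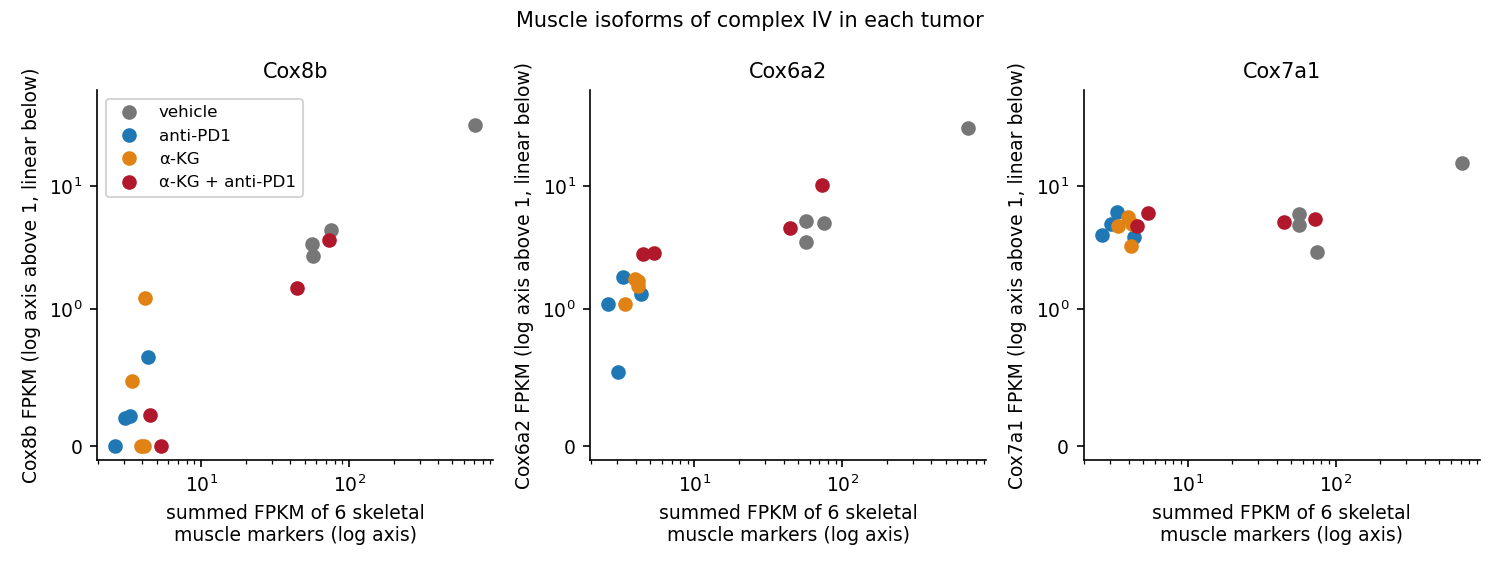
FPKM of Cox8b, Cox6a2 and Cox7a1 (y axis, logarithmic above 1 and linear below) against the summed FPKM of 6 skeletal muscle markers (x axis, logarithmic) in each of the 16 tumors, colored by group. The 4 vehicle tumors and 2 of the α-KG + anti-PD1 tumors lie at 44.6 or more on the x axis and have the highest Cox8b and Cox6a2 values, while Cox7a1 shows this for vehicle tumor 4 alone.

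Cox6b2 was at 0.93, 1.48, 7.27 and 8.65 FPKM in vehicle, and ranged over 0.41 to 1.34 with anti-PD1, 0.38 to 0.82 with α-KG and 0.17 to 1.16 with both. Vehicle tumors 3 and 4 were high and vehicle tumors 1 and 2 close to the rest, and the gene fell after α-KG + anti-PD1 (-1.58, adjusted p from limma 0.00653) and after α-KG (-1.48, adjusted p 0.0236). Without vehicle tumor 4 it was called after the combination (-1.20, adjusted p from limma 0.0253) and not after α-KG (-1.10, adjusted p 0.0811). Cox4i2 was at 0.79, 0.27, 0.39 and 0.1 FPKM in vehicle, 0.12, 0.13, 0.31 and 0 in α-KG and 2.29, 1.15, 0.86 and 0.4 in α-KG + anti-PD1 tumors, all low values, and was higher in the combination than in α-KG (0.87, adjusted p 0.0145), in each tumor of one above each tumor of the other. Ndufa4 (531 ± 8.21 FPKM in vehicle and 493 ± 43.6 in the combination) and Ndufa4l2 (1.85 ± 0.419 and 1.61 ± 0.298 FPKM) did not pass in any comparison, nor did Cox4i1, Cox6b1, Cox7a2 and Cox7b.

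After α-KG alone 9 of the 88 genes fell against vehicle and 0 rose, where 7.53% of all genes tested were lower and 8.4% higher, so the share of the former (10.2%) was near the background. The 9 were the tissue isoforms Cox6a2, Cox6b2 and Cox8b, the complex I subunits Ndufs1, Ndufs3, Ndufv1 and Ndufa9, Uqcrc1 and Atp5c1. Ndufs1, the largest subunit of the peripheral arm of complex I, had 63.4, 65.3, 68.3 and 65.8 FPKM in vehicle, 58.0, 64.7, 61.0 and 58.5 in anti-PD1, 55.5, 50.4, 49.6 and 57.9 in α-KG and 62.9, 59.8, 60.1 and 66.8 in α-KG + anti-PD1 tumors. The α-KG tumors were the 4 lowest of the 16, and the combination overlapped with vehicle and with anti-PD1. The log2 fold change of Ndufs1 was -0.30 (SE 0.06, adjusted p from limma 0.00496) for α-KG against vehicle. Uqcrc1 was lower in each α-KG tumor (139.8, 129.8, 123 and 135 FPKM) than in each vehicle tumor (152, 148, 181 and 189.6 FPKM), and the log2 fold change was -0.34 (adjusted p 0.014). Neutrophil markers moved with α-KG as well, since all 5 rose, from a summed 22.2 to 41.0 FPKM in vehicle to 1073 to 2858 FPKM. All 5 leukocyte markers rose too (median log2 fold change 2.91, summed 25.3 to 123 FPKM in vehicle and 371 to 397 in α-KG tumors), as did 3 of 5 macrophage markers (summed 72.5 to 351 and 340 to 526 FPKM), while 1 of 5 erythroid markers fell. The part of these cells was not tested.

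The change after α-KG also moved with the length of the messenger RNA. Lengths were known for 87 of the 88 genes, of which 18 were under 500 nt, 14 had 1500 nt or more and 55 lay between. Against vehicle the median log2 fold change after α-KG was 0.04 for the short, -0.09 for the middle and -0.21 for the long genes, and all 14 long genes had a negative value. Over all genes tested, the medians of these classes were 0.13, -0.01 and -0.05. In α-KG + anti-PD1 against α-KG the medians of all genes turned to -0.15, 0.04 and 0.20, and those of the respiratory chain and ATP synthase genes were -0.16, 0.00 and 0.00. In α-KG + anti-PD1 against vehicle the medians of all genes were -0.07, 0.01 and 0.18. Those of the respiratory chain and ATP synthase genes were -0.13, -0.10 and -0.22, furthest from all genes in the long class. What this course with length comes from was not tested, and it reads across genes, which are no independent replicates.

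**Figure D5:**
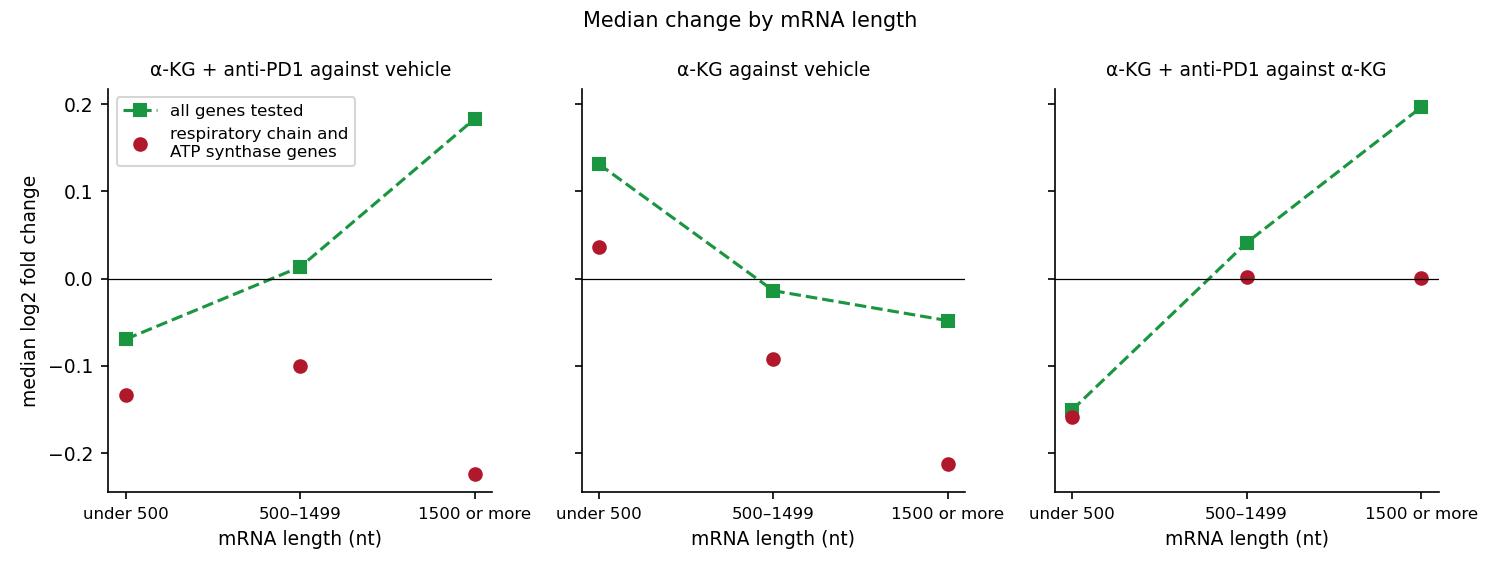
Median log2 fold change (y axis) by class of mRNA length (x axis, nt) for all genes tested (squares) and the respiratory chain and ATP synthase genes (dots), in 3 comparisons. The classes hold 18, 55 and 14 of these genes, and short mRNAs are highest after α-KG against vehicle (0.13 and 0.04) and lowest in α-KG + anti-PD1 against α-KG (-0.15 and -0.16).

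Anti-PD1 alone moved none of the 88 genes past the threshold in limma, where 0.467% of all genes were higher and 0.28% lower. At an unadjusted p under 0.05 in limma there were 12 of them. The share of all genes at that threshold was not counted, so the 12 cannot be read as an effect on these genes. The median was -0.04, against 0.03 for all genes, and 69 of 88 were below the latter, but with quantile normalization 36 were. The most negative values were those of Cox8b (-2.56, adjusted p from limma 0.0549) and Cox6a2, and among abundant genes those of Ndufv3 (-0.32, adjusted p 0.151) and Uqcrc2 (-0.25, adjusted p 0.243). Without vehicle tumor 1, 5 genes were called lower (Cox6a2, Cox6b2, Cox8b, Ndufv3 and Uqcrc2), and limma called 1 gene with a pseudocount of 0.1. Shares of all genes called in these fits are not given here.

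Between α-KG + anti-PD1 and anti-PD1, which differ in α-KG, 4 of the 88 genes were lower and 0 higher, where 1.31% of all genes were lower and 14.2% higher. They were Atp5o (-0.27, adjusted p from limma 0.0329), Ndufs8 (-0.27, 0.037), Ndufa9 (-0.25, 0.041) and Atp5g1 (-0.24, 0.0347). In each of them the 4 tumors of the combination were below the 4 anti-PD1 tumors, for Ndufs8 at 67.1, 68.5, 63.9 and 65.5 FPKM against 80.8, 76.8, 81.4 and 80.8 FPKM. Their adjusted p lay close to the threshold. The number was 0 without any one of anti-PD1 tumors 1, 3 and 4 or combination tumors 2 and 3, 1 without combination tumor 1, and 10 without anti-PD1 tumor 2. Shares of all genes called in these fits are not given here. After centering on tumor medians, 32 were lower and 0 higher, against 15.3% and 6.24% of all genes. Rescaled to the same sum, 0 were lower and 5 higher, against 0.28% and 32.7%, and without hemoglobin genes in that sum 6 were lower and 0 higher, against 1.25% and 11.9%. With quantile normalization 5 were lower and 0 higher, against 8.42% and 5.61%. In a limma fit of these 2 groups alone 0 were lower, and the share of all genes in that fit is not given here. All 5 T-cell markers were higher in the combination than with anti-PD1 (median log2 fold change 1.95, summed 18.6 to 172 against 5.97 to 23.3 FPKM), as was 1 of 5 leukocyte markers, while 3 of 5 erythroid markers (summed 4713 to 5050 against 10203 to 62354 FPKM) and 1 of 5 melanocyte markers were lower. Their part was not tested.

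Between α-KG + anti-PD1 and α-KG, which differ in the antibody, 11 were lower and 4 higher, against 6.47% and 31.8% of all genes. Among the 72 genes at 50 FPKM or more 11 were lower (15.3%) and 3 higher. Of all tested genes at that level 19.3% were lower and 12.1% higher. Lower were Atp5e, Atp5k, Ndufs6, Cox7a2l, Ndufs8, Atp5o, Atp5a1, Uqcrq, Atp5j, Atp5g1 and Ndufb11, and higher were Cox4i2, Cox6a1, Cox5a and Ndufs1. Atp5e (an mRNA of 421 nt) had 361, 342, 387 and 275 FPKM in α-KG and 228, 228, 244 and 237 FPKM in α-KG + anti-PD1 tumors, and 207, 274, 276 and 308 FPKM in vehicle. The α-KG tumors were above the combination, which lay within the vehicle range, with a log2 fold change of -0.53 (SE 0.15, adjusted p from limma 0.0107). Atp5k, the e subunit of Fo (371 nt), changed by -0.47 (adjusted p 0.0207) and Ndufs6, an accessory subunit of complex I, by -0.43 (adjusted p 0.00868).

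Of the genes higher in the combination, Cox6a1 was above α-KG in every tumor (0.79, SE 0.27, adjusted p from limma 0.0292), Cox5a changed by 0.34 (adjusted p 0.02) and Ndufs1 by 0.22 (adjusted p 0.0134). After centering on tumor medians none of the 4 was called, 46 genes were lower and 0 higher, against 24.3% and 13.7% of all genes. With the other scalings the split turned. When the sums were made equal, 29 were higher and 1 lower, against 53.1% and 2.86% of all genes, and without hemoglobin in that sum 14 were higher and 4 lower, against 40.1% and 4.5%. With quantile normalization 12 were higher and 7 lower, against 15.7% in both directions. Markers of other cells differed as well. All 5 neutrophil markers were lower in the combination than in α-KG tumors (median log2 fold change -4.32, summed 32.6 to 111 against 1073 to 2858 FPKM), as were all 5 erythroid markers (-2.44, summed 4713 to 5050 against 12283 to 42429 FPKM), while all 5 T-cell markers (2.29, summed 18.6 to 172 against 4.46 to 28.4 FPKM) and 2 of 5 macrophage markers were higher and 1 of 5 melanocyte markers was lower, and their part was not tested. Without α-KG tumor 4, 22 genes were lower, and without α-KG tumor 1, 2 or 3 or combination tumor 2 or 3 between 5 and 7. These counts stand without the shares of all genes in the same fits, which are not given here. Ndufaf8, the assembly factor of 427 nt, was at 69.9, 97.6, 95.7 and 55.6 FPKM in α-KG and 55.9, 64.7, 63.0 and 51.6 FPKM in the combination and did not pass (log2 fold change -0.40, adjusted p 0.074). The comparisons against vehicle rest on 1 set of 4 vehicle tumors, and both comparisons of the combination with a single treatment share its 4 tumors.

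The interaction asks whether the change with α-KG differed with and without anti-PD1. It is the log2 fold change of α-KG + anti-PD1 against anti-PD1 minus that of α-KG against vehicle. It was positive and past the threshold for 3 of the 88 genes and negative for 0, against 7.99% and 3.13% of all genes. The 3 were Cox6a2 (3.11, SE 0.67, adjusted p from limma 0.00977), Cox8b (3.08, SE 0.83, adjusted p 0.0287) and Ndufs1 (0.34, SE 0.09, adjusted p 0.0276). All 6 skeletal muscle markers had a positive interaction past the threshold too. Without vehicle tumor 4 it was 2.50 for Cox6a2 and 2.37 for Cox8b (adjusted p 0.00360 and 0.0252). For Ndufs1, α-KG went with a lower level in the absence of the antibody (-0.30) and with 0.04 in its presence, and after centering on tumor medians the interaction was 0.14 (adjusted p 0.413).

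Genes that work beside these complexes were read from lists, and their counts stand against 10.5% lower and 34.9% higher among all genes tested, and 31.4% and 13.1% among those at 50 FPKM or more. Of 10 genes of complex II and the electron carriers, 5 fell after α-KG + anti-PD1 and 0 rose, with a median of -0.25, among them Cyc1, the cytochrome c1 of complex III that the symbol rule leaves out (219 ± 26.4 to 171 ± 9.21 FPKM, -0.36, adjusted p from limma 0.00333), Cycs, cytochrome c (-0.29), and Sdhb, the iron-sulfur subunit of complex II (-0.26). Of 14 genes of the tricarboxylic acid cycle, 8 fell and 1 rose (median -0.28), with Suclg1 (-0.45) and Fh1 (-0.36) lower and Idh3b higher (0.33). Of 6 carriers and pores, 3 fell, among them the ADP/ATP carrier Slc25a5 (-0.38) and the pore Vdac1 (-0.46). Of the genes of glycolysis and targets of the hypoxia factor HIF, 12 of 19 fell and 0 rose (median -0.34), among them Ldha (2177 ± 234 to 1549 ± 114 FPKM, -0.49).

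Mitochondrial ribosomal proteins had 27 of 78 lower and 1 higher (median -0.17), and cytosolic ones 23 of 78 lower and 0 higher (median -0.28). The share of the cytosolic ones was near the 31.4% of tested genes at 50 FPKM or more. The mitochondrial ones summed to 3376 to 4159 FPKM in a tumor, so some of the 78 were below that level. At 20 to 50 FPKM the median of all genes was 0.02. Of 37 assembly factors outside the rule, 5 fell and 1 rose, and of 12 genes of mitochondrial DNA expression 0 fell and 1, Mterf3, rose (0.42). Of the regulators of mitochondrial biogenesis, 4 of 10 rose, a share near the 34.9% of all genes, and 0 fell. These were Esrra, an orphan receptor that drives genes of oxidative metabolism (13.9 ± 1.24 to 23.3 ± 2.02 FPKM, 0.71, adjusted p from limma 0.000537), Pprc1 (0.60), Ppargc1b (0.63) and Nfe2l2 (0.37). The levels of Esrra, at 23.3 FPKM or less on average in each group, are in a range in which the median of all genes was above 0. After centering, Esrra (0.40, adjusted p 0.00260) was still higher and Ppargc1b (0.32, adjusted p 0.11) was not called. In α-KG + anti-PD1 against α-KG, 64 of the 78 cytosolic ribosomal proteins were lower and 0 higher. In that comparison 6.47% of all genes were lower and 31.8% higher, and 19.3% and 12.1% of those at 50 FPKM or more. The counts of these ribosomal proteins with other scalings are not given here.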

How the data were processed

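The deposited table gives one FPKM value per gene and tumor, which the authors computed from poly(A) RNA-seq reads. The submitters' processing notes name HISAT, Bowtie2 and the mouse build mm10, while the program and annotation behind the FPKM values and the use of strand in counting are not given in the sources used here. Read counts are not given, so depth and counting intervals are unknown, and FPKM also depends on the total of each tumor. Values were analyzed as log2(FPKM + 1), so fold changes of low genes are understated. The filter kept genes that reached 0.5 FPKM in 4 or more tumors. A model with 1 mean per group over 16 tumors was fitted with limma 3.58.1 (R 4.3.3, empirical Bayes with trend), with Benjamini-Hochberg adjustment over 12850 genes and a threshold of 0.05. The fit was tested on simulated data. Alternatives were a pseudocount of 0.1, no filter, centering on tumor medians, quantile normalization, rescaling to the same sum with and without hemoglobin genes, a fit of the compared groups only, a replicate block and leaving out each tumor. Reading against genes of 50 FPKM or more was added after seeing the data. Named genes were the most abundant gene of each complex, the largest called changes of each comparison, tissue isoforms with their partners, the c subunit genes, Atp5b and the genes called in the interaction. Other genes were named after their values were seen, and 1 gene is not reported here. The genes and all lists were chosen with earlier results of these data known.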

Additional observations from a re-analysis of the deposited data

Results flagged for a closer look

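Of 124 groups of 4 tumors examined, 12 held a tumor whose gap to its nearest neighbor exceeded Dixon's 95% limit, and chance flags about 1 in 20 groups. Vehicle tumor 1 was the high one for Ndufb9 (601 FPKM), Cox8a (1014 FPKM), Cox6a1 (994 FPKM) and Cox7a2 (307 FPKM), and for the share of the 90 genes in the FPKM sum (3.64%). Vehicle tumor 4 was the high one for Cox8b (31.6 FPKM), Cox6a2 (29.5 FPKM) and Cox7b2 (0.13 FPKM, the other 3 being listed at 0), and also had the most skeletal muscle marker RNA. The other outlying values were Atp5g2 in α-KG tumor 4 (521 FPKM), Cox7b in α-KG tumor 1 (265 FPKM), Ndufs8 in anti-PD1 tumor 2 (76.8 FPKM) and the median log2 level of the genes in α-KG tumor 4 (7.11).

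The change with α-KG differed between tumors with and without anti-PD1 by the interaction term of limma for Cox6a2 (3.11 on the log2 scale), Cox8b (3.08) and Ndufs1 (0.34).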

How the results depend on the processing

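The counts of genes called are given as higher and lower, and the cause of each change was not tested. In α-KG + anti-PD1 against vehicle, quantile normalization gave 3 higher (all genes 17.4%), centering 62 lower (37.4%), and rescaling to the same sum 8 higher and 5 lower (49% and 1.95%). In anti-PD1 against vehicle, 1 was lower with a pseudocount of 0.1, 1 with quantile normalization and 2 with centering (all genes 0.412% and 0.521% for the latter 2). In α-KG against vehicle, quantile normalization gave 16 lower, rescaling to the same sum 4, and rescaling without hemoglobin 21 (all genes 12.8%, 3.14% and 11.3%). In α-KG + anti-PD1 against anti-PD1, 1 was higher with a pseudocount of 0.1, centering gave 32 lower (all genes 15.3%), rescaling to the same sum 5 higher and 0 lower (32.7% and 0.28%), and the fit of the compared groups 0 lower. In α-KG + anti-PD1 against α-KG, quantile normalization gave 12 higher and 7 lower (all genes 15.7% and 15.7%), centering 0 higher and 46 lower (13.7% and 24.3%), rescaling to the same sum 29 higher and 1 lower (53.1% and 2.86%), rescaling without hemoglobin 14 higher and 4 lower (40.1% and 4.5%), and the fit of the compared groups 7 lower. In the interaction, centering gave 2 lower (all genes 4.93%) and rescaling to the same sum 6 higher (16.4%). For the pseudocount of 0.1 and the fit of the compared groups the shares of all genes are not given here. Counts from these fits therefore cannot be read against them.

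The median of the genes minus that of all genes changed sign with quantile normalization, to 0.031 in α-KG + anti-PD1 against vehicle and 0.031 against α-KG, to 0.024 in anti-PD1 against vehicle and to 0.036 in the interaction, and moved to -0.0091 against anti-PD1. Read against tested genes of 50 FPKM or more, a reading added after seeing the data, it was 0.023 against vehicle, 0.0055 against anti-PD1 and -0.036 against α-KG. Of the single genes reported, Atp5g1 rescaled to the same sum (0.044) and Ndufs1 with centering (-0.050) changed sign between α-KG + anti-PD1 and α-KG.

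Leaving out 1 tumor at a time gave 0 to 4 higher and 15 to 24 lower in α-KG + anti-PD1 against vehicle, 0 to 5 lower in anti-PD1 and 0 to 4 higher and 4 to 14 lower in α-KG against vehicle, 0 to 1 higher and 0 to 10 lower against anti-PD1, 2 to 6 higher and 5 to 22 lower against α-KG, and 1 to 3 higher and 0 to 3 lower in the interaction. The lowest and highest differences of medians were -0.30 and -0.21, -0.11 and -0.03, -0.10 and 0.01, -0.24 and -0.14, -0.30 and -0.18, and -0.18 and -0.07 in this order. Against vehicle, 4 were higher after α-KG + anti-PD1 without vehicle tumor 1, 2 without tumor 4 of the combination and 1 without anti-PD1 tumor 1. In anti-PD1 against vehicle, 5 were lower without vehicle tumor 1, 2 without tumor 1 of the combination and 1 without vehicle tumor 2 or tumor 3 or 4 of the combination. Against anti-PD1, 1 was higher after the combination without vehicle tumor 1 or 4 or tumor 4 of the combination, and against α-KG 2 were higher without α-KG tumor 3 or 4 or tumor 3 of the combination. In α-KG against vehicle, 14 were lower without vehicle tumor 1, 4 without vehicle tumor 3 or 4, and 4 were higher without α-KG tumor 4. In the interaction, leaving out anti-PD1 tumor 2 gave 3 lower, as did leaving out α-KG tumor 4, and 1 was higher without α-KG tumor 3, anti-PD1 tumor 1 or anti-PD1 tumor 4. Leaving out a tumor can change the calls of all genes. Their shares in these fits are not given here, so the counts describe the fits and are no result about these genes.

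Groups share replicate numbers, but deviations of same-numbered tumors correlated between -0.64 and 0.41 and 4 of 16 tumors correlated best with their own number, so the numbers do not pair the tumors. With a replicate block, 7 genes were lower in α-KG + anti-PD1 against α-KG and 2 were higher in the interaction. The shares of all genes in that fit are not given here, so these counts cannot be read against them. Depth limits the tissue isoforms, whose values rest on few fragments, and the number of tumors limits the precision.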
